A study of Mus musculus with 132 samples.

Results

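Galectins, S100 proteins and annexins are 3 families of proteins that work at membranes and cell surfaces without being routed through the secretory pathway. The genes described here are 10 members of these families, 2 galectins (Lgals1 and Lgals3), 3 S100 genes (S100a6, S100a10 and S100a11) and 5 annexins (Anxa2, Anxa3, Anxa5, Anxa6 and Anxa7), out of 32245 genes measured. They were taken by symbol. Lgals1 was picked from these data for its rise between the 8-cell and the 32-cell stage, so its stage difference is given as a description and supports nothing. All 10 had counts in at least 1 cell.

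The cells came from preimplantation embryos of C57BL/6 x DBA F1 mice (C57BL/6NCrl x DBA/2NHsd in the study's methods) whose culture medium held, from the 2-cell stage on, either a mimic of miR-381-3p (the mimic groups) or a scrambled oligonucleotide (the control groups), and single cells were read with Smart-seq2, which covers whole polyadenylated transcripts and uses no molecular identifiers. At the 8-cell stage (embryonic day 2.5) there were 30 control and 24 mimic cells. At the 32-cell stage (embryonic day 3.5) there were 39 control and 39 mimic cells. All embryos, control embryos included, received an oligonucleotide in the medium, at 5 or 10 µM, namely 10 µM in the 8-cell groups and 5 µM in the 32-cell groups by the study's text, so that stage and dose cannot be told apart. The titles of all 8-cell cells end in a and those of all 32-cell cells in b, and what this suffix marks cannot be told apart from stage either. Each group and stage drew on 3 to 5 embryos, but no label ties a cell to its embryo. Each group was therefore treated as 1 sample, and no test between groups was made. Levels are counts per 1000000 counts without mitochondrial genes (CPM), pooled over the cells of a group. The interval in brackets after a level is an exact Poisson 95% interval, which covers counting error only, and the spread over cells is given as the lowest, median and highest cell.

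Cells of the 32-cell stage were clustered into an ICM-like class (inner cell mass) and a TE-like class (trophectoderm). The cells had 544866 to 3461022 counts each. In 8-cell mimic embryos 3 cells had 3243, 4614 and 4881 genes with a count, against at least 5919 in every other cell of the series, and the values they move most are given with and without them. At the 32-cell stage every control cell had Y-linked transcripts above Xist and every mimic cell had Xist only. The 8-cell groups were mixed, with Xist only in 23 and Y-linked transcripts above it in 7 of the control cells, and 11 and 7 such cells in the mimic group, where 6 more fell in neither class. Treatment at the 32-cell stage therefore cannot be told apart from embryo sex. Within each group the numbers in the cell titles fall into runs, of which control run 2 and mimic runs 2 and 3 of the 32-cell stage follow on each other with no jump of 10 or more. At the 8-cell stage all 24 mimic cells were 1 run (63 to 86). Of the control cells 28 were another run (1 to 30) and 2 a second (87 and 88). Treatment and run can therefore hardly be told apart at that stage. Of 8 fibroblast markers at most 3 had a count in any group, with a summed level of at most 0.676 CPM and all 8 at 0 at the 8-cell stage, and of 8 blood markers at most 4 had one, with at most 1.42 CPM and Ptprc and Tyrobp at 0 in every group. Cumulus or granulosa markers summed to 2.34 to 17.3 CPM, mostly Star, with Fshr, Inha, Ptx3, Cyp11a1 and Hsd3b1 at 0 in every group. Oviduct epithelium markers summed to 5.48 to 32.6 CPM, with Ovgp1 at 12.5 and 16.5 CPM the highest of them at the 8-cell stage and Wt1 at 0 in every group. The part of these cells in the levels below was not tested.

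Galectins bind sugars that end in galactose on glycoproteins. Galectin-1, the product of Lgals1, acts as a pair of identical subunits, and galectin-3, the product of Lgals3, has a single sugar-binding domain on a long flexible tail and gathers on damaged endosomes and lysosomes. Both are known from the trophectoderm, the outer cell layer of the blastocyst that contacts the uterus. S100 proteins are small calcium sensors that fold into dimers and hand the calcium signal on to partner proteins. Annexins bind acidic phospholipids when calcium is present. The families meet in 1 complex, in which an S100a10 dimer joins a pair of annexin A2 molecules under the plasma membrane and links the membrane to actin. S100a10 is the exception among S100 proteins, since it holds its partner without needing calcium.

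The genes lie at the following places in the GENCODE annotation of GRCm38, which is the build of the deposited counts. The 3 S100 genes lie on chromosome 3, S100a6 at chr3:90612882-90624181, S100a11 at chr3:93520488-93526287 and S100a10 at chr3:93555080-93564643. Lgals1 is at chr15:78926725-78930465, Lgals3 at chr14:47367751-47386160, Anxa2 at chr9:69453620-69491795, Anxa3 at chr5:96793339-96845966, Anxa5 at chr3:36448923-36475894, Anxa6 at chr11:54979108-55033445 and Anxa7 at chr14:20455260-20480133, with the last 3 on the minus strand and the other 7 on the plus strand. An exon of Anxa2 overlaps the antisense gene Gm16144, which also had counts, and Lgals1 and S100a11 have processed pseudogenes elsewhere whose reads could be shared with them, so their levels carry that uncertainty.

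The mimic copies a microRNA, which pairs through its seed (bases 2 to 8) with sites in the 3' untranslated region (3' UTR) of messenger RNAs. The mature sequence is shown because the treatment adds it to the embryo. It is given 5' to 3' with the seed in capitals, from RefSeq on GRCm38.p6 (chr12:109726870-109726891, plus strand).
mmu-miR-381-3p: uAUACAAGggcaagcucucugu
The full 8-base site for this seed is CTTGTATA. None of the 10 genes had it in its longest annotated 3' UTR (92 to 1219 bases), and none had a 7-base site (CTTGTAT or TTGTATA) or the 6-base site TTGTAT. Over 20742 genes with a 3' UTR, whose median length was 967 bases, 3.12% held the 8-base site, 11.3% and 15.5% held the 7-base sites and 38.2% the 6-base site. The absence of these letters says nothing of sites elsewhere in the transcripts or of effects that pass through other genes.

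Promoter sequence from RefSeq (GRCm38.p6) was at hand for 6 of the 10 genes, Lgals3, S100a6, S100a11, Anxa2, Anxa5 and Anxa7. S100a11 and Anxa2 are shown because both were higher at the 32-cell stage and in TE-like control cells and varied together from cell to cell, as described further on. Lgals3 is shown because it varied little with them over 32-cell control cells (Spearman's rho of 0.10 with S100a11 and 0.22 with Anxa2). Over 32-cell mimic cells its rho was -0.40 with S100a11 and 0.08 with Anxa2. Each line gives the 250 bases before the transcription start, 5' to 3' along the gene, with motif matches in capitals. S100a11 is at chr3:93520246-93520495, Anxa2 at chr9:69453433-69453682 and Lgals3 at chr14:47373610-47373859, all on the plus strand. The Lgals3 window lies inside the annotated span of the gene, which begins at chr14:47367751, so it stands before an inner start and not the outermost one.
S100a11: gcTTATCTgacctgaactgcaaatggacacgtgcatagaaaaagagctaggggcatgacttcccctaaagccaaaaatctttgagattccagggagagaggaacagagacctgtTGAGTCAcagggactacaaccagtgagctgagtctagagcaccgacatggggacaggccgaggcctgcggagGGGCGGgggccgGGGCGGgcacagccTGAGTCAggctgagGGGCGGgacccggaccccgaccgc
Anxa2: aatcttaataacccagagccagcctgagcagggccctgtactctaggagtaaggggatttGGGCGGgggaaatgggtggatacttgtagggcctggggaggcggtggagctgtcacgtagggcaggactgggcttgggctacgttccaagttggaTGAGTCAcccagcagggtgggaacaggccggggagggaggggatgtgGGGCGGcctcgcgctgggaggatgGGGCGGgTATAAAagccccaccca
Lgals3: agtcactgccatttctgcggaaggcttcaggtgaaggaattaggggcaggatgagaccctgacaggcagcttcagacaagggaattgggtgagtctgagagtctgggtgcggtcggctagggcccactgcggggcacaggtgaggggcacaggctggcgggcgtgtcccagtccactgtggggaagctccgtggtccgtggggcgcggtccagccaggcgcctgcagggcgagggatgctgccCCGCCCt
The AP-1 motif TGANTCA, bound by Fos and Jun proteins, matched 2 times before S100a11 (first bases at -136 and -38 from the start) and 1 time before Anxa2 (at -95), and not in the other promoters. In windows from 250 bases before to 50 after the start, 7.81% of 32851 mouse promoters held it. The GC box GGGCGG matched 3 times before S100a11, 3 times before Anxa2 and 2 times in the Lgals3 window, of which the second lies past the start and is not shown, and 35.7% of promoters held it. A TATA box (TATAAA) stood 17 bases before the start of Anxa2, and a GATA motif (AGATAA, here on the minus strand) 248 bases before that of S100a11, in 13.6% and 11.2% of promoters. Neither the TEAD motif CATTCC nor the TFAP2 motif GCCNNNGGC matched in any of the 6 promoters, on either strand. Motif matches are letters, not sites shown to be bound.

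The order of the 10 genes by level changed between the stages. Per kb of the longest protein-coding transcript, Anxa7 stood first in 8-cell control cells at 149.9 CPM per kb, followed by Lgals3 at 54.4, Anxa2 at 32.3 and S100a10 at 21.7, and Lgals1 stood last at 0.408. In 32-cell control cells Lgals1 stood first at 323.7 CPM per kb and Anxa2 second at 319.97, followed by Anxa7 at 183.3 and S100a10 at 127.01 (with the median transcript length Anxa2 stood first). Lgals3 had gone from place 2 to place 9, at 6.73 CPM per kb. In 32-cell mimic cells Anxa2 led at 232.8 CPM per kb and Lgals1 stood at place 4 with 49.7.

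**Figure D1:**
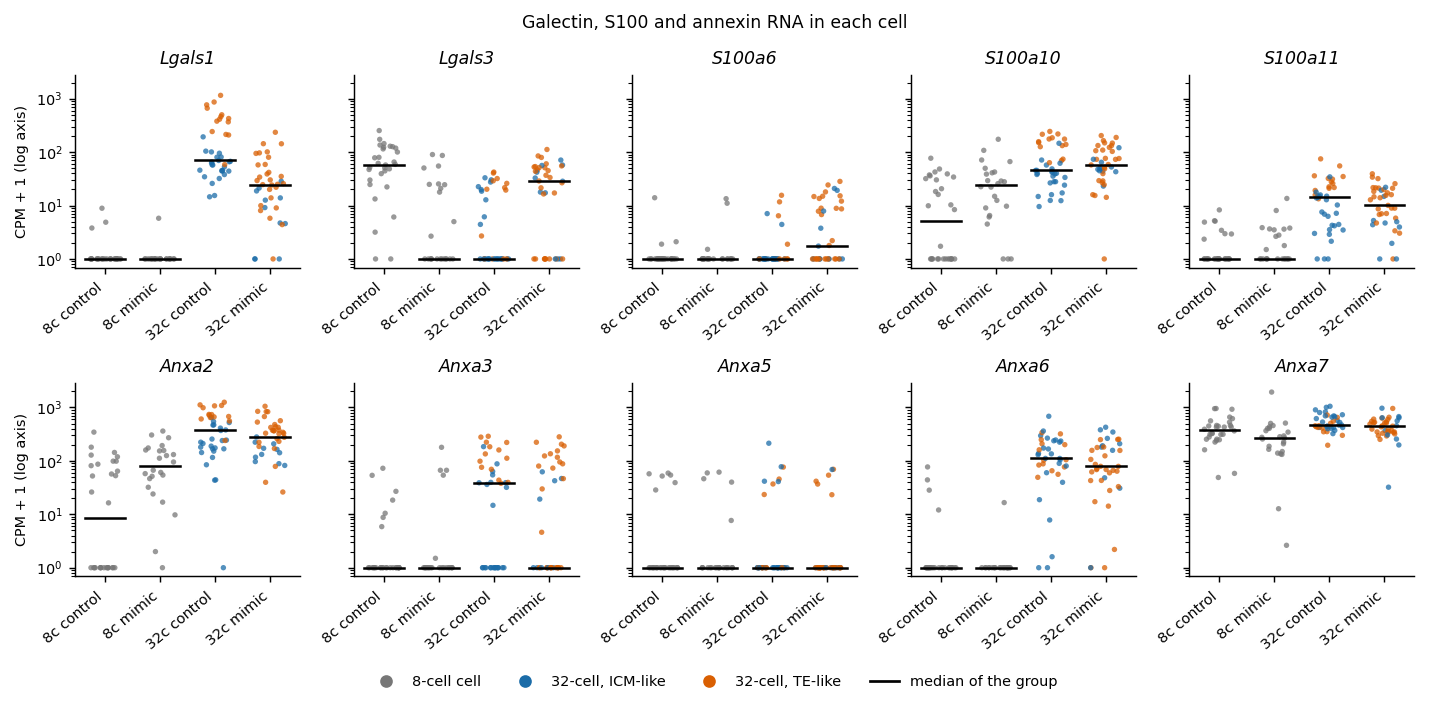
CPM + 1 of the 10 genes (log axis) in every cell of the 4 groups, with 8-cell cells in grey, 32-cell ICM-like cells in blue, 32-cell TE-like cells in orange and a bar at the median of each group (n = 30, 24, 39 and 39 cells). Lgals1 lies near 0 in both 8-cell groups and between 13.6 and 1154 CPM in all 32-cell control cells, while Anxa5 has counts in few cells of any group.

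The stage comparison asks how the families change as the embryo moves from equal cells to an inner cell mass (ICM) and a trophectoderm (TE). In control embryos 9 of the 10 genes were higher at the 32-cell stage and Lgals3 was lower. For S100a6 the counting interval of the ratio, 0.98 to 3.15, includes equal levels. The share of all genes higher by any amount was not counted, so this count is a description. Among the 7 genes with 20 CPM or more in at least 1 of the stages, those past 2-fold on the log2(CPM + 1) scale were 5 higher genes (Lgals1, S100a10, Anxa2, Anxa3 and Anxa6) and 1 lower gene (Lgals3). Of all 7469 genes with such a level, 30% were 2-fold or more higher and 20.1% lower, and the count of higher genes includes Lgals1, which was picked on this difference. The median difference was 2.69 over the 10 genes, Lgals1 and the 3 genes under 20 CPM included, and 0.20 over all genes at 20 CPM or more, so that the medians given here and below are of unlike sets and are a description. In mimic embryos 5 genes were again 2-fold or more higher (the 5 named above) and 0 lower, of 7 at 20 CPM or more, beside 29.1% higher and 18.8% lower of 7594 genes, with a median of 1.68 over the 10 genes and 0.20 over all. With the 8-cell control cells limited to the 7 with Y-linked transcripts above Xist, as in all 32-cell control cells, again 5 genes were higher and 1 lower, and with the 8-cell mimic cells limited to the 11 with Xist only 4 were higher and 0 lower. The shares of all genes were not recomputed for these subsets.

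Lgals1 had almost no counts at the 8-cell stage. It had counts in 3 of 30 control cells (10%, exact binomial 95% interval 2.11 to 26.5), 12 counts in all or 0.327 CPM (0.169 to 0.571), and in 1 of 24 mimic cells, 8 counts or 0.259 CPM (0.112 to 0.510). The binomial interval takes the cells as independent, which cells of the same embryo may not be, and does not cover the spread among embryos. All 39 32-cell control cells had counts, from 13.6 to 1154 CPM with a median of 68.7, and each of them lay above every 8-cell control cell. Pooled over cells the level was 259 CPM (255 to 263), 793 times that at the 8-cell stage with a counting interval of 454 to 1534, which is wide because it rests on 12 counts. The pooled level lay far above the median cell, and 1 cell alone held 26.1% of all counts of the gene in this group. In 32-cell mimic cells 35 of 39 had counts (89.7%), from 0 to 234 CPM with a median of 23.2, and the pooled level was 39.8 CPM (38.1 to 41.5).

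Lgals3 moved against Lgals1 in control embryos. It had counts in 28 of 30 8-cell control cells, from 0 to 252 CPM with a median of 57.2, and in 18 of 39 32-cell control cells, from 0 to 41.3 CPM with a median of 0. The pooled level fell by 2.89 on the log2 scale, from 77.2 CPM (74.4 to 80.1) to 9.54 CPM (8.76 to 10.4), and 21 of the 30 8-cell cells lay above every 32-cell cell. Thinned to 500000 counts per cell the shares of cells with a count were 93.3% and 43.6%. In mimic embryos the order was the other way round, 15.9 CPM (14.5 to 17.4) at the 8-cell stage and 28.02 CPM (26.6 to 29.5) at the 32-cell stage, a log2 difference of 0.78 that stayed within 2-fold.

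Of the S100 genes, S100a10 was the most abundant. It had counts in 16 of 30 8-cell control cells (0 to 75.9 CPM, median 4.06) and in all 39 32-cell control cells (8.57 to 243 CPM, median 44.5), and the pooled level was 14.9 CPM (13.7 to 16.2) and 87.004 CPM (84.6 to 89.5), a ratio of 5.84. In mimic embryos it went from 33.5 to 72.01 CPM, a ratio of 2.15 that lies just past 2-fold. Its log2 difference of 1.08 became 0.92 by TMM and 0.81 by RLE scaling, 0.98 without the first run of 32-cell mimic cells and 0.93 among cells with Xist only. S100a11, which binds annexins A1 and A2, went from 0.871 CPM (0.596 to 1.23) to 16.4 CPM (15.4 to 17.5) in control embryos and from 1.62 to 13.0 CPM in mimic embryos. It had counts in 8 of 30 8-cell control cells and 36 of 39 32-cell control cells, but it stayed under 20 CPM in all 4 groups and was therefore not among the genes counted. S100a6, known as calcyclin, was the lowest of the 10 genes in 32-cell control cells, at 0.844 CPM (0.622 to 1.12) with counts in 6 of 39 cells, against 0.490 CPM in 8-cell control cells. In mimic embryos it was 0.841 CPM at the 8-cell stage and 5.30 CPM (4.70 to 5.95) at the 32-cell stage, with counts in 20 of 39 cells there.

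Anxa2 had the highest pooled level of the genes that differed by stage. In 8-cell control cells it was split, with no count in 15 of 30 cells and up to 344 CPM in the rest, and in 32-cell control cells 38 of 39 had counts, with a median of 378 CPM and a highest value of 1251. The pooled level was 46.7 CPM (44.5 to 48.9) and 463.001 CPM (457 to 469), a ratio of 9.92. In mimic embryos it was 111.7 CPM (108.04 to 115.5) and 337 CPM (332 to 342), a ratio of 3.01, with counts in 23 of 24 8-cell cells and in all 39 32-cell cells. Without the 3 mimic cells of few genes the 8-cell level was 88.3 CPM.

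Anxa6, whose protein carries the annexin core in duplicate, was close to silent at the 8-cell stage. It had counts in 4 of 30 control cells, 5.74 CPM (4.99 to 6.57) with 52.1% of them in 1 cell, and in 1 of 24 mimic cells, 0.615 CPM (0.370 to 0.960). At the 32-cell stage it had counts in 37 of 39 control cells, at 158.6 CPM (155.4 to 161.95), and in 36 of 39 mimic cells, at 117.03 CPM (114.1 to 119.97). The ratio was 27.6 in control embryos and 190 in mimic embryos, where it rests on 19 counts of a single 8-cell cell. Anxa3 went from 8.11 CPM with counts in 7 of 30 cells to 67.7 CPM (65.5 to 69.8) with counts in 24 of 39 in control embryos. In mimic embryos it went from 14.6 to 53.04 CPM, a log2 difference of 1.79. One of the 3 mimic cells of few genes held 50.3% of the gene's 8-cell counts, and without those 3 cells the 8-cell level was 8.32 CPM.

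Anxa7 and Anxa5 differed little by stage. Anxa7, a membrane-fusion annexin that binds sorcin, had counts in every cell, at 435 CPM (429 to 442) in 8-cell and 532 CPM (526 to 538) in 32-cell control cells, and at 369 and 453 CPM in mimic cells, where the 8-cell level was 268.5 CPM without the 3 cells of few genes. Its standard deviation of log2(CPM + 1) over 32-cell control cells was 0.505, where that of the other 9 genes ranged from 1.05 to 3.24. Anxa5, the annexin used to stain exposed phosphatidylserine, had counts in 5 to 8 cells of each group and 7.64 to 14.7 CPM. In 32-cell control cells 51.7% of its counts were in 1 ICM-like cell at 213 CPM.

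**Figure D2:**
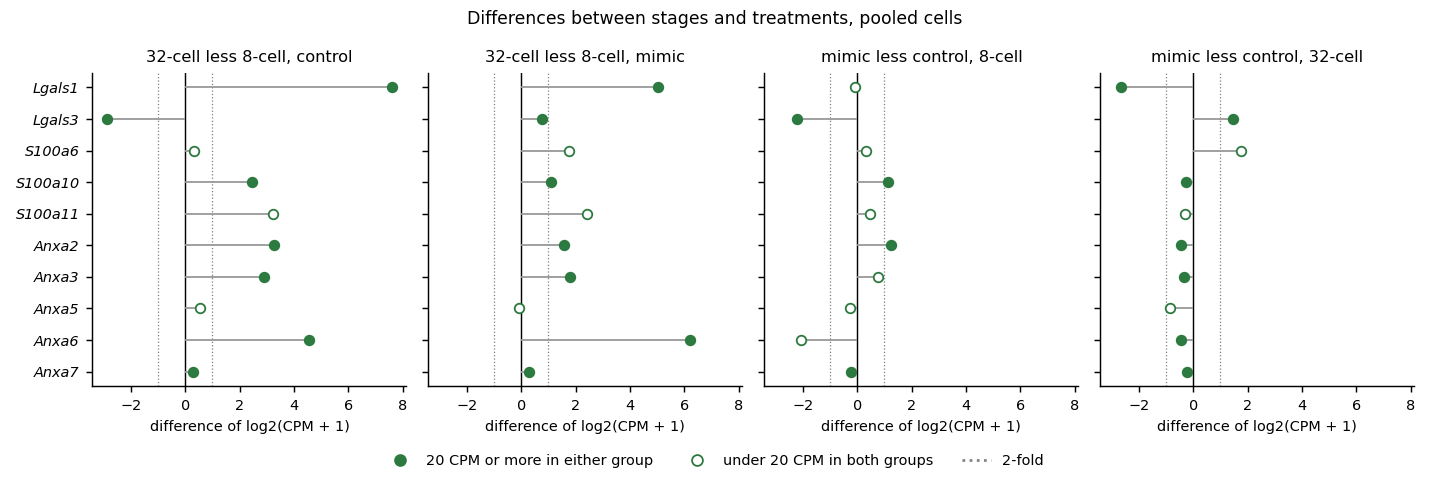
Differences of log2(CPM + 1) between pooled groups for the 10 genes, 32-cell less 8-cell in control and mimic embryos and mimic less control at each stage, with dotted lines at 2-fold and open points for genes under 20 CPM in both groups. Lgals3 lies at -2.89 in the stage comparison of control embryos, at -2.21 for mimic less control at the 8-cell stage and at 1.46 at the 32-cell stage, and Lgals1 lies at -2.67 in the last panel.

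The 32-cell cells were then compared by lineage. The labels give no lineage, so clusters were built from odd-ranked genes without the 10 genes, the rest of their families and the partner genes listed below, and were named from 9 ICM and 9 TE markers. All 9 ICM markers were higher in 1 cluster (36 cells, called ICM-like) and all 9 TE markers in the other (42 cells, called TE-like). The ICM-like class held 25 of the 39 control cells (64.1%) and 11 of the 39 mimic cells (28.2%). Set by the marker score the classes held the same number of control cells but 17 ICM-like mimic cells (43.6%). The classes therefore mix treatment and lineage, and Zfy1, a Y-linked gene, was among the 10 leading genes of the ICM-like cluster, with Tdgf1 the only marker there and no marker of either list among the 10 leading genes of the TE-like cluster. Classes are set against each other within 1 treatment, as a description.

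In control embryos 5 of the 7 genes with 20 CPM or more in at least 1 of the classes were 2-fold or more lower in ICM-like than in TE-like cells (Lgals1, S100a10, S100a11, Anxa2 and Anxa3), and 0 were higher. Of 7239 genes, 10.1% were 2-fold or more lower and 11.9% higher. The median difference was -1.50 over the 10 genes and 0.07 over all genes at that level. In mimic embryos 3 of 7 genes were 2-fold or more lower (Lgals1, Anxa2 and Anxa3) and 1 was higher (Anxa6), beside 9.03% lower and 8.68% higher of 7457 genes, and the median was -0.37.

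Lgals1 showed the widest gap of the 10 genes between the classes in control embryos. The 14 TE-like control cells had 57.4 to 1154 CPM with a median of 418, and the 25 ICM-like control cells 13.6 to 192 CPM with a median of 56.2, so that the ranges overlapped. Pooled, the level was 532 CPM (523 to 541) in TE-like and 54.7 CPM (52.2 to 57.3) in ICM-like cells, a ratio of 9.73. The mimic classes stood at 51.3 CPM (49.1 to 53.6) in TE-like and 8.84 CPM (7.37 to 10.5) in ICM-like cells, a ratio of 5.81. The median mimic TE-like cell had 28.8 CPM, and 1 cell held 19.05% of the counts of that class. The 1 control cell with the largest share of the counts of its group, given above, was likewise TE-like.

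The annexin A2 complex followed the same class order. S100a10 stood at 154.2 CPM (149.3 to 159.2) in TE-like and 36.8 CPM (34.7 to 38.9) in ICM-like control cells, and Anxa2 at 784 CPM (773 to 795) and 223 CPM (218 to 229). S100a11 stood at 27.98 and 7.77 CPM and Anxa3 at 131.5 and 19.9 CPM, with Anxa3 counts in all 14 TE-like cells and in 10 of 25 ICM-like cells. In mimic embryos the class ratio of Anxa3 was 3.83 and that of Anxa2 2.46, while S100a10 (78.1 and 55.7 CPM) and S100a11 (14.6 and 8.63 CPM) stayed within 2-fold. S100a10 was lower in TE-like and higher in ICM-like mimic cells than in the control cells of the same class, and Anxa2 was lower in both classes, at 402 and 163.6 CPM.

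The remaining annexins did not follow this order. Anxa6 was about equal in control classes, at 168.1 CPM in TE-like and 151.5 CPM in ICM-like cells, and in mimic embryos it was 2.20 times as high in ICM-like as in TE-like cells (194 and 88.2 CPM). That call was lost when classes were set by the marker score (log2 0.58) or when the third mimic run, which holds 1 ICM-like cell, was left out (0.92). Anxa7 was 610 CPM in ICM-like and 428 CPM in TE-like control cells. Anxa5 stood at 19.2 and 8.79 CPM, but 69.4% of the ICM-like counts came from 1 cell.

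**Figure D3:**
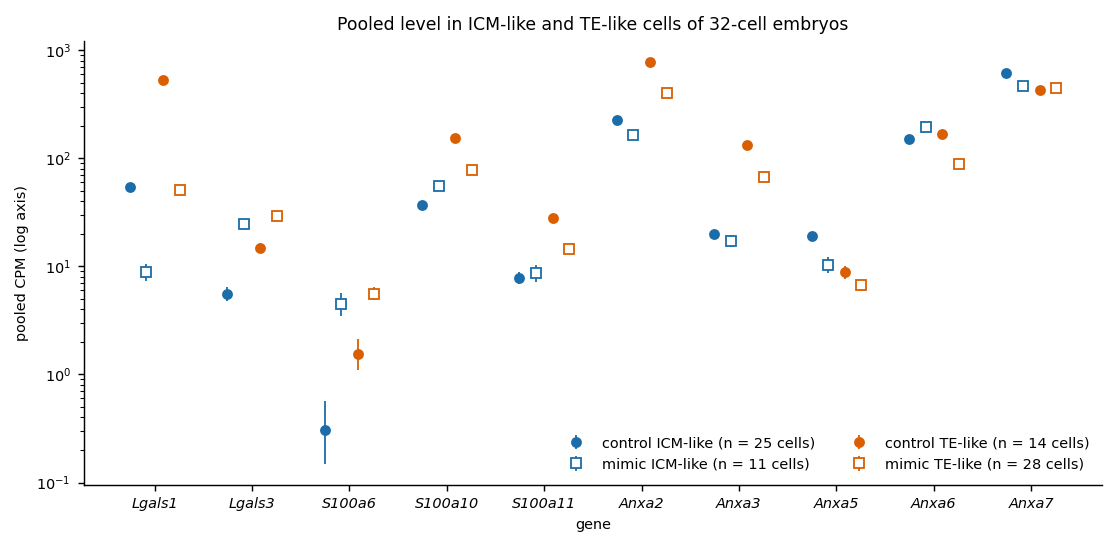
Pooled CPM (log axis) of the 10 genes in ICM-like and TE-like cells of 32-cell control embryos (filled circles, 25 and 14 cells) and mimic embryos (open squares, 11 and 28 cells), with exact Poisson 95% intervals. The TE-like control point is the highest of the 4 for Lgals1 (532 CPM), S100a10, S100a11, Anxa2 and Anxa3, and for Lgals3 and S100a6 both mimic points lie above both control points.

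Treatment was compared first at the 8-cell stage. Only 4 of the 10 genes had 20 CPM or more in either group, of which 2 were 2-fold or more higher in mimic cells (S100a10 and Anxa2) and 1 was lower (Lgals3), beside 6.96% higher and 6.09% lower of 6570 genes. Lgals3 was seen in 28 of 30 control cells but in 11 of 24 mimic cells, and the pooled level was 77.2 against 15.9 CPM, a log2 difference of -2.21. It was lower in mimic cells among cells with Xist only (66.8 and 24.7 CPM, 23 and 11 cells) and among cells with Y-linked transcripts above Xist (102.04 and 3.77 CPM, 7 and 7 cells), and the mimic level was 16.5 CPM without the 3 mimic cells of few genes.

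The calls of S100a10 and Anxa2 past 2-fold depended on the 3 mimic cells of few genes. S100a10 stood at 14.9 CPM in control against 33.5 CPM in mimic cells, and Anxa2 at 46.7 against 111.7 CPM. Without these cells, which had 28.3 to 106.9 CPM of S100a10 and 152.4 to 360 CPM of Anxa2, the mimic levels were 27.8 and 88.3 CPM and the log2 differences went from 1.12 to 0.86 and from 1.24 to 0.90, both within 2-fold. S100a10 also changed direction among cells with Y-linked transcripts above Xist, to -0.88 (7 control cells at 30.4 CPM and 7 mimic cells at 16.04 CPM), and Anxa2 was within 2-fold there, at 0.66. Of the 6 genes under 20 CPM, Anxa6 had the largest difference, 5.74 CPM in control against 0.615 CPM in mimic cells, and Lgals1, S100a6, S100a11, Anxa3 and Anxa5 were within 2-fold. Anxa7 was 435 and 369 CPM, and one of the 3 mimic cells of few genes held 29.5% of its mimic counts (268.5 CPM without the 3 cells).

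At the 32-cell stage 7 genes had 20 CPM or more in either group, of which 1 was 2-fold or more higher in mimic cells (Lgals3) and 1 lower (Lgals1), beside 6.87% higher and 5.36% lower of 7307 genes. The other 5 genes at that level (S100a10, Anxa2, Anxa3, Anxa6 and Anxa7) were lower by less than 2-fold, with log2 differences from -0.46 to -0.23. The median over the 10 genes was -0.33, against 0.01 over all genes at that level.

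Lgals1 was lower in mimic than in control cells in both classes and in every run. The pooled levels of 259 and 39.8 CPM differed by -2.67 on the log2 scale. The groups overlapped, with 11 control cells above every mimic cell and 15 mimic cells below every control cell. In TE-like cells the difference was -3.35 (532 and 51.3 CPM) and in ICM-like cells -2.50 (54.7 and 8.84 CPM). By runs of title numbers the 2 control runs stood at 334 and 146.5 CPM and the 3 mimic runs at 48.1, 39.3 and 29.7 CPM. In the stretch formed by control run 2 and mimic runs 2 and 3, which holds both treatments, the values were 146.5 CPM in control and 39.3 and 29.7 CPM in the mimic runs. For the TE-like cells of these runs the values were 719 and 280 CPM in control and 63.9, 56.3 and 34.4 CPM in mimic embryos.

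For Lgals3 the mimic level was the higher one here, the opposite of the 8-cell stage. Counts were present in 18 of 39 control cells (46.2%) and in 27 of 39 mimic cells (69.2%), and the pooled level was 9.54 CPM (8.76 to 10.4) and 28.02 CPM (26.6 to 29.5). In ICM-like cells it was 5.56 and 24.6 CPM, a log2 difference of 1.97, and in TE-like cells 14.9 and 29.3 CPM, a difference of 0.93. The control runs stood at 9.90 and 9.01 CPM. The mimic runs were unlike, with 39.4 and 32.7 CPM in 2 runs and 8.39 CPM in the third (9 cells, of which 1 was ICM-like), which lay below both control runs. In the same stretch the control run had 9.01 CPM and the mimic runs 32.7 and 8.39 CPM.

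S100a6 showed the same direction as Lgals3 at a low level, 0.844 CPM against 5.30 CPM, with counts in 6 and in 20 of 39 cells. The 2 control runs had 0.26 and 1.71 CPM and the 3 mimic runs 6.77, 6.18 and 2.46 CPM. It stayed under 20 CPM in both groups and in both classes.

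In TE-like cells 1 of 8 genes with at least 20 CPM was 2-fold or more lower (Lgals1) and 0 were higher, beside 7.7% lower and 11.8% higher of 7308 genes. This count sits on the edge of the threshold. S100a10, S100a11, Anxa2, Anxa3 and Anxa6 were all lower in mimic cells, with ratios of mimic to control of 0.506, 0.521, 0.512, 0.505 and 0.524. Scaled by TMM 5 genes and by RLE 6 genes were lower past 2-fold, and with any 1 run of title numbers left out 2 to 4 were. Both scalings lower every mimic level against control in these cells, with factors of 1.04 and 1.07 for mimic and 0.98 and 0.97 for control. The shares of all genes were not recomputed for these settings. The median over the 10 genes was -0.91 in TE-like cells, against 0.05 over all genes at that level. In ICM-like cells 1 of 6 genes was higher (Lgals3) and 1 lower (Lgals1), beside 11.6% higher and 10.1% lower of 7422 genes, and the median over the 10 genes was -0.03.

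**Figure D4:**
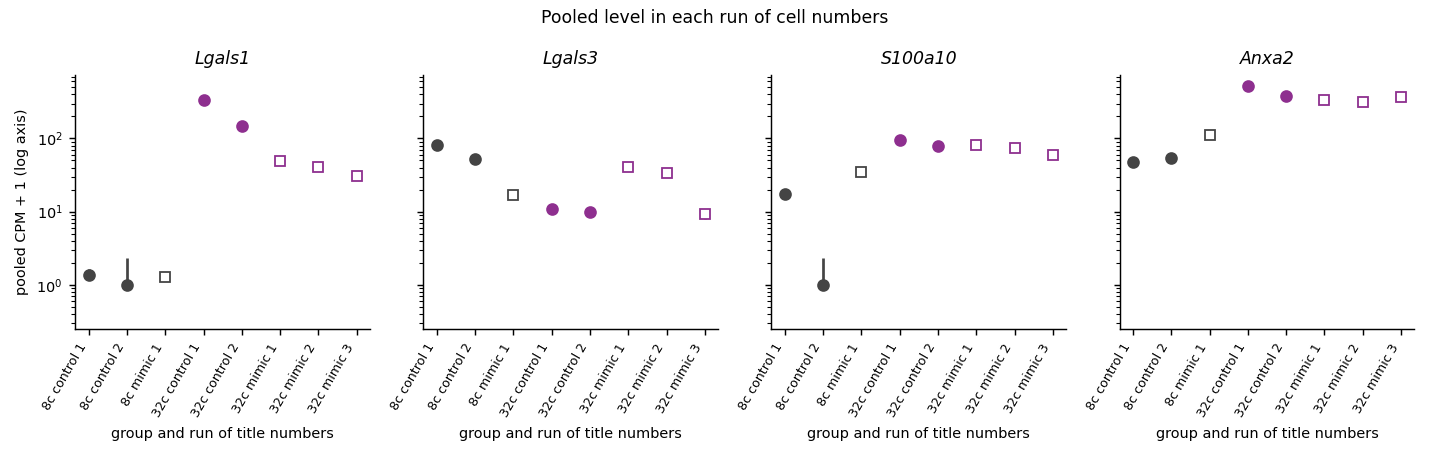
Pooled CPM + 1 (log axis) of Lgals1, Lgals3, S100a10 and Anxa2 in each run of title numbers within a group, with control runs as filled circles, mimic runs as open squares, 8-cell runs in dark grey and 32-cell runs in purple, and exact Poisson 95% intervals. The 3 mimic runs of Lgals1 (29.7 to 48.1 CPM) lie below both control runs of the 32-cell stage, and the third mimic run of Lgals3 (8.39 CPM) lies with the control runs.

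Of the list made for the rest of the 3 families, 29 further genes were in the table, and 8 reached 20 CPM in any group (Lgals4, Lgals8, Lgals9, Lgalsl, S100pbp, Anxa4, Anxa8 and Anxa9). The list and the counts below include S100pbp, whose protein binds an S100 protein and is not one itself. The other 21 stayed below, and 9 had no count in any cell. In control embryos Lgals4 and Anxa4 were 2-fold or more higher and Lgals9 and Anxa8 2-fold or more lower at the 32-cell stage, of 7 at 20 CPM or more and beside 30% higher and 20.1% lower of all genes. Lgals4, a galectin with a pair of sugar-binding domains known from gut epithelium, went from 17.6 to 56.1 CPM and was higher in TE-like (102.03 CPM) than in ICM-like control cells (21.8 CPM), as Lgals1 was. It was also lower in 32-cell mimic cells, at 17.6 CPM. Anxa4 went from 12.1 to 113.3 CPM in control and from 18.5 to 83.1 CPM in mimic embryos, and was about equal in the control classes (110.1 CPM in TE-like and 115.7 CPM in ICM-like cells), as Anxa6 was.

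Anxa8, like Lgals3, was lower in mimic cells at the 8-cell stage and higher at the 32-cell stage. Anxa8 was 39.1 CPM in 8-cell control and 15.3 CPM in 8-cell mimic cells, and 3.498 CPM in 32-cell control and 62.6 CPM in 32-cell mimic cells, where it was 66.8 CPM in ICM-like and 61.0 CPM in TE-like cells. Lgals9 was 84.8 and 9.80 CPM in 8-cell control and mimic cells and 19.6 and 28.6 CPM in 32-cell control and mimic cells, within 2-fold, with 15.2 and 43.4 CPM in ICM-like and 25.6 and 23.1 CPM in TE-like cells. Anxa9 was 0.436 CPM in 8-cell control and 23.2 CPM in 8-cell mimic cells. Lgals8, a galectin that marks damaged vesicles, stood at 159.3 to 240.02 CPM in the 4 groups. Lgalsl, a galectin-related protein, stood at 18.2 to 50.7 CPM, and S100pbp at 48.2 and 31.02 CPM in 8-cell and 32-cell control cells. In mimic embryos 3 of 7 further genes of the list were 2-fold or more higher at the 32-cell stage (Lgals9, Anxa4 and Anxa8) and 1 lower (S100pbp, not itself of the 3 families), beside 29.1% and 18.8% of all genes. Between treatments 1 of 6 was higher (Anxa9) and 2 lower (Lgals9 and Anxa8) in 8-cell mimic cells, beside 6.96% and 6.09% of all genes, and 1 of 8 higher (Anxa8) and 1 lower (Lgals4) in 32-cell mimic cells, beside 6.87% and 5.36%. By class the latter counts were 2 higher (Lgals9 and Anxa8) and 3 lower (Lgals4, Lgals8 and Lgalsl) of 7 in ICM-like cells, beside 11.6% and 10.1%, and 1 higher (Anxa8) and 1 lower (Lgals4) of 8 in TE-like cells, beside 11.8% and 7.7%. In ICM-like mimic against control cells Lgals8 was 104.3 against 246.3 CPM and Lgalsl 8.84 against 46.5 CPM. In ICM-like against TE-like cells 2 of 7 were lower in control (Lgals4 and Anxa9) and 2 of 8 in mimic embryos (Lgalsl and Anxa9), and 0 were higher, beside 10.1% and 9.03% of all genes lower and 11.9% and 8.68% higher. With so few genes these shares are a description.

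Partner genes were taken from a list of 25 genes whose proteins bind or work with these families. Of 17 at 20 CPM or more in control embryos 8 were 2-fold or more higher at the 32-cell stage and 2 lower, beside 30% and 20.1% of all genes, and in mimic embryos 7 of 16 were higher and 3 lower, beside 29.1% and 18.8%. At the 8-cell stage 1 of 13 was higher (Trpv5, a calcium channel carried to the membrane by S100a10 and annexin A2, at 19.6 and 45.4 CPM in control and mimic cells) and 0 lower, beside 6.96% and 6.09% of all genes, and without the 3 mimic cells of few genes 0 were higher. At the 32-cell stage 0 of 16 were past 2-fold in either direction, beside 6.87% and 5.36%. By class, 2 were higher and 3 lower of 16 in ICM-like cells, beside 11.6% and 10.1%, and 1 higher (Lamp2) and 2 lower (Sri and Trpv5) of 17 in TE-like cells, beside 11.8% and 7.7%. In ICM-like against TE-like cells 3 of 17 were lower in control (Ahnak, Trpv5 and Capn2) and 3 of 15 in mimic embryos (Ano6, Dlc1 and Capn2), and 0 were higher, beside 10.1% and 9.03% of all genes lower and 11.9% and 8.68% higher. Ahnak, a giant scaffold that S100a10 and annexin A2 anchor, went from 16.6 to 112.9 CPM in control and from 17.8 to 183 CPM in mimic embryos, and stood at 186 CPM in TE-like and 58.4 CPM in ICM-like control cells. Capn2, a calcium-dependent protease, had 0 counts in 8-cell control cells and 50.04 CPM in 32-cell control cells, with 107.4 CPM in TE-like and 7.19 CPM in ICM-like cells. Sri, the sorcin that binds annexin A7, went from 1.85 to 129 CPM in control and from 8.57 to 72.5 CPM in mimic embryos, while Anxa7 itself stayed within 2-fold.

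Membrane and lysosome genes of the list went both ways. Ano6, a scramblase that exposes phosphatidylserine, went from 32.2 to 89.9 CPM, Bsg (basigin, a galectin-3 ligand) from 287 to 776 CPM, Itgb1 from 87.8 to 184 CPM, Tsg101 from 53.3 to 110.7 CPM and Mgat5, which makes the branched sugars that galectins bind, from 4.03 to 26.2 CPM in control embryos. In mimic embryos Itgb1 was at 110.03 and 115.4 CPM, within 2-fold, while Ano6 went from 26.8 to 60.01 CPM, Bsg from 288 to 983 CPM, Tsg101 from 40.7 to 97.8 CPM and Mgat5 from 0.032 to 18.7 CPM. Pdcd6ip went from 64.8 to 118.2 CPM in control embryos, within 2-fold, and from 64.6 to 142.6 CPM in mimic embryos. Dysf, a membrane repair protein, went down from 37.9 to 0.967 CPM and Lamp2, a lysosome membrane protein, from 1608 to 266 CPM. In mimic embryos Dysf went from 36.7 to 1.63 CPM and Lamp2 from 1170 to 507 CPM.

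Co-variation was examined over single cells within each 32-cell group. Spearman's rho was computed on CPM over the 39 cells of a group, which differ in class, run and depth and share their treatment, and it is given with no test. In control cells the 10 pairs among Lgals1, S100a10, S100a11, Anxa2 and Anxa3 had rho from 0.48 to 0.79, with Lgals1 and Anxa2 the highest. These 5 genes are those that were lower in ICM-like cells, and they were set apart here after the values were seen. Within the 14 TE-like control cells the same pairs ranged from -0.12 to 0.49 and within the 25 ICM-like control cells from -0.36 to 0.54, and each pair was lower within either class than over both. The pair S100a10 and Anxa2, whose proteins form the complex, had rho of 0.69 over all control cells, 0.11 in TE-like and 0.17 in ICM-like cells. Over mimic cells the 10 pairs ranged from 0.18 to 0.62. There some pairs were higher within a class, such as Anxa2 and Anxa3 at 0.71 in TE-like cells (0.62 over both classes) and S100a11 and Anxa2 at 0.63 in ICM-like cells (0.42 over both).

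The lowest pair in control cells was Anxa3 and Anxa7, at -0.45, and in mimic cells the same pair stood at 0.39. By class it stood at -0.49 in ICM-like and 0.27 in TE-like control cells and at 0.42 in TE-like mimic cells, which make up most of the mimic group.

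**Figure D5:**
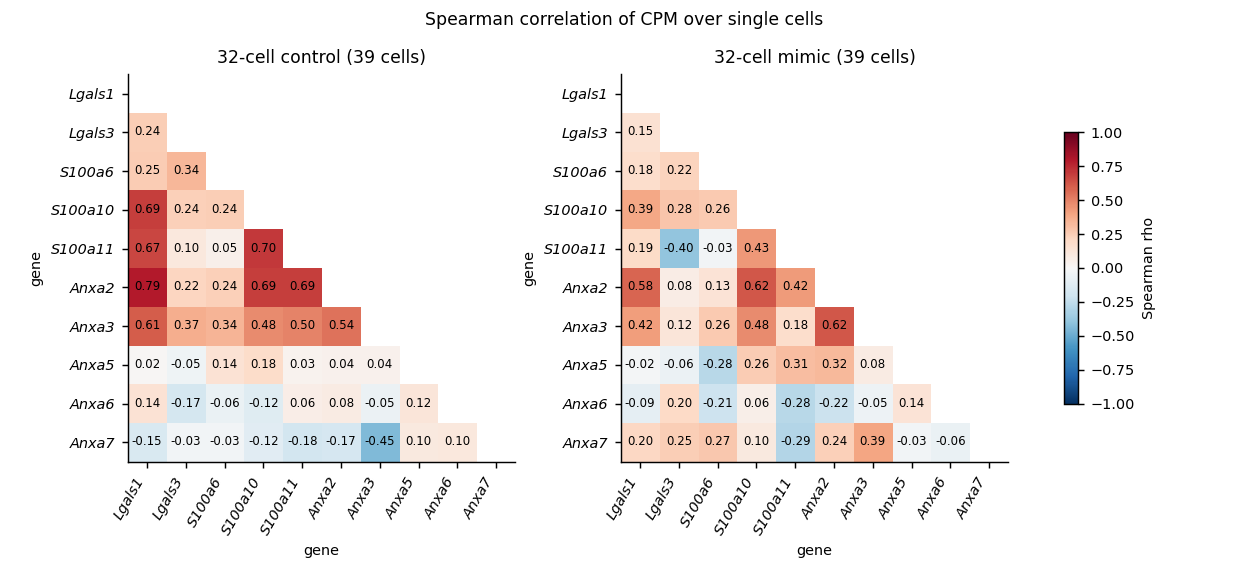
Spearman's rho of CPM between pairs of the 10 genes over the 39 control cells and over the 39 mimic cells of the 32-cell stage, from blue (-1) to red (1), with the value in each square. A block of Lgals1, S100a10, S100a11, Anxa2 and Anxa3 has rho of 0.48 to 0.79 in control cells, and the square of Anxa3 and Anxa7 has -0.45 in control and 0.39 in mimic cells, groups that differ in their share of TE-like cells.

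Among 6655 genes at 20 CPM or more in 32-cell control cells, those whose level followed Lgals1 most closely were Fabp3 (rho 0.82), Krt8 (0.81), Krt18 (0.80), Anxa2 (0.79) and Prxl2b (0.79). Krt8 and Krt18 form the keratin filaments of the TE, and both are TE markers, and Fabp3 carries fatty acids. Over the 39 mimic cells the same genes had rho of 0.62, 0.71, 0.71, 0.58 and 0.61 with Lgals1. S100a10 stood at place 37, out of the 6655, and the ICM marker Spic stood last, at -0.83. The pooled level of Krt8 was 1250 CPM in control against 1313 CPM in mimic cells, that of Krt18 1263 against 1375 CPM and that of Fabp3 332 against 325 CPM. Prxl2b stood at 77.7 against 38.6 CPM. These are levels of whole groups, which held 14 TE-like control cells and 28 TE-like mimic cells. At that level the other TE markers went both ways. Id2 (place 7) at 403 against 540.2 CPM and Eomes at 23.7 against 35.6 CPM were higher in mimic cells. Dab2 was about equal, at 699.6 against 694 CPM. Tspan8 (place 12) at 193 against 72.9 CPM and Elf3 at 485 against 311 CPM were lower in mimic cells. So were Gata3 at 1536 against 1351 CPM and Fgfr2 at 86.4 against 66.2 CPM. In TE-like cells Krt8 was 2126 and 1657 CPM, Krt18 2414 and 1773 CPM and Fabp3 645 and 416 CPM in control and mimic embryos. These genes were lower in mimic TE-like cells by less than 2-fold, as were Gata3, Id2, Fgfr2 and Dab2. Prxl2b (152.4 and 49.5 CPM), Tspan8 (394.7 and 92.2 CPM) and Elf3 (755.5 and 374.8 CPM) were lower there by more than 2-fold. Eomes was higher in mimic TE-like cells, at 29.8 and 44.9 CPM in control and mimic embryos.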

How the data were processed

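Single cells of mouse 8-cell and 32-cell embryos were read with Smart-seq2. The deposited values are expected counts (estimated counts per gene, here whole numbers), which the authors made with STAR 2.5.1b and RSEM 1.3.0 on mm10, as listed in the submitters' processing notes. Smart-seq2 does not mark strand. Groups follow the labels of each cell. Reads carry no molecular identifiers, so intervals and floors cover counting error only, and a count of 0 allows up to 3 counts.

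Counts were summed over the cells of a group and divided by the total without the 13 mitochondrial genes. Differences are of log2(CPM + 1), with a pseudocount of 1 CPM, which understates the change of low genes. A gene was counted as past 2-fold only at 20 CPM or more in either group, and the share of all genes past it stands beside the counts. No test was made, since the labels name no embryo for a cell. The 2-fold counting was tested on simulated independent cells with planted changes well past 2-fold. That does not bear on calls near 2-fold or on groups of 1 sample. Cells had at least 3000 genes and under 10% mitochondrial counts, and no doublet caller was run. Clusters (Seurat 5.3.0 in R 4.3.3, 2000 variable genes, 25 components) used a resolution of 0.8, raised from 0.6 until the 32-cell cells split. TMM and RLE factors came from edgeR 4.0.16. Python 3.11.15, pandas 2.3.3, numpy 2.4.6, scipy 1.17.1 and matplotlib 3.10.9 did the rest. Runs of title numbers were set within each group and broken at jumps of 10 or more, so that a run ends where the treatment changes. A cell was called Y-linked or Xist from a level of 20 CPM.

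Alternatives were the pseudocount, the filter, totals with mitochondrial genes, TMM and RLE scaling, equal weight per cell, thinning to 500000 counts, each run left out, cells of 1 Xist or Y class, 2 other ways to set the classes and 2 other transcript lengths. Leaving out the 8-cell mimic cells with under 5000 genes was added after the data were seen. The 10 genes, the family, partner and marker lists and the comparisons were chosen with earlier results of these data known. Named beside the 10 were genes of the family list at 20 CPM or more in any group, partner genes past 2-fold in a stage or treatment comparison, and the 5 genes closest to Lgals1 by Spearman's rho. Spic and the TE markers set beside Lgals1, and the partner Dlc1 named by class, were named after their values were seen. Protein sequences and the promoters of Lgals1, S100a10, Anxa3 and Anxa6 were not used here.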

Additional observations from a re-analysis of the deposited data

Results flagged for a closer look

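The difference between mimic and control pointed opposite ways at the 8-cell and the 32-cell stage for Lgals3 and for Anxa8. For Lgals3 the log2 difference was -2.21 at the 8-cell stage and 1.46 at the 32-cell stage, which are 3.6694 apart. For Anxa8 the differences were -1.30 and 3.82, which are 5.1176 apart. These are differences of pooled CPM, and Anxa8 had a count in 15 of 30 control and 7 of 24 mimic cells at the 8-cell stage and in 5 of 39 control and 25 of 39 mimic cells at the 32-cell stage. At the 8-cell stage 2 control cells lay above every mimic cell, and at the 32-cell stage 13 mimic cells lay above every control cell. With 1 sample per group the difference between the stages was not tested. By the study's text the dose also differed between the stages, and at the 32-cell stage Xist and Y-linked transcripts separated the treatments. The third run of 32-cell mimic cells had 8.39 CPM of Lgals3, the level of the control runs (9.90 and 9.01 CPM).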

How the results depend on the processing

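Of 434 settings over the 28 single-gene differences past 2-fold among the 10 genes (Anxa8 and the other genes named beside them were not rerun), 433 kept the direction and 423 stayed past 2-fold. The exception in direction was S100a10 in mimic against control cells of the 8-cell stage among cells with Y-linked transcripts above Xist, at -0.8831. Counts of genes past 2-fold moved as follows, while the shares of all genes were not recomputed for these settings. For mimic against control at the 8-cell stage the 2 higher genes became 1 with a pseudocount of 5 CPM, 0 among cells with Y-linked transcripts above Xist and 0 without the 8-cell mimic cells of under 5000 genes, a setting chosen after seeing the data. The 1 lower gene became 2 without a filter or with one of 5 CPM and 3 among the cells with Y-linked transcripts above Xist. At the 32-cell stage the 1 higher gene became 2 without a filter or with one of 5 CPM. In ICM-like cells the 1 higher gene became 2 without a filter. In TE-like cells the 0 higher genes became 1 without a filter, with one of 5 CPM and with classes from all genes, and the 1 lower gene became 5 by TMM, 6 by RLE, 3 by the mean of cell CPM, 6 by the mean of log2(CPM + 1) and 3 when thinned. In ICM-like against TE-like cells the 0 higher genes of control embryos became 1 without a filter or with one of 5 CPM, and the 1 of mimic embryos became 0 with classes by marker score. With 1 run left out at a time, higher and lower genes ranged from 1 to 1 and 1 to 2 at the 32-cell stage, 1 to 2 and 1 to 2 in ICM-like cells, 0 to 1 and 2 to 4 in TE-like cells, 0 to 1 and 5 to 6 for ICM-like against TE-like in control and 0 to 1 and 3 to 3 in mimic embryos. The stage counts ranged from 5 to 6 higher and 1 to 1 lower in control and from 4 to 6 higher and 0 to 0 lower in mimic embryos. Without the filter S100a11 was also past 2-fold higher at the 32-cell stage, by 3.22 in control and 2.42 in mimic embryos. The same held for S100a6 in mimic embryos, by 1.77. The causes were not tested. Of the calls past 2-fold, S100a10 in the stage comparison of mimic embryos was within 2-fold by TMM (0.92), by RLE (0.81), without the first 32-cell mimic run (0.98) and among cells with Xist only (0.93). The order by level per kb kept 54 of 80 places under the other transcript lengths. No paired analysis was possible because the title numbers that some groups share name no embryo or pair and no test was made.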
